A study of Mus musculus with 15 samples.

Results

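The genes described here encode 15 enzymes and subunits of the tricarboxylic acid (TCA) cycle and its supply of oxaloacetate, 18 proteins of branched-chain amino acid breakdown and 3 enzymes of ketone use. They were chosen by name, as the rows of the count table with these 36 gene symbols, and not by their values. All 36 of 36 were in the table of 22798 symbols, and all 36 were among the 17975 genes that passed the filter on low counts. The lowest count of any member in any library was 168, for Bdh1.

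The TCA cycle oxidises acetyl-CoA in the mitochondrial matrix and passes the electrons to the respiratory chain. Skeletal muscle starts the breakdown of leucine, isoleucine and valine by removing their amino group, and an irreversible dehydrogenase complex, switched off by a kinase and on by a phosphatase, then commits their carbon to oxidation as acetyl-CoA and succinyl-CoA. During fasting muscle also takes up ketone bodies made by the liver and turns them back into acetyl-CoA, using succinyl-CoA from the cycle as the donor of coenzyme A.

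RNA was sequenced from skeletal muscle of C57BL/6 mice aged 12 months, all starved overnight on a normal diet. Sedentary wild-type mice gave 6 libraries, labelled as the control in their titles, mice labelled exercise gave 6, and CD47-/- mice, labelled CD47-KO, which lack by their label the receptor of thrombospondin 1, gave 3. The labels give neither the form and length of the exercise, nor the muscle sampled, nor the sex, and they do not say that each library came from a separate animal. The p-values therefore measure the spread between these libraries, which may be technical in part.

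Total counts ranged from 50928458 to 84364189 per library, and the 36 members together took 0.392 to 1.00% of them. Exercise and sedentary libraries numbered 1 to 3 in their titles stand apart from those numbered 4 to 6, and no label says what the 2 sets are. The share of counts from genes on the mitochondrial genome was 4.49 to 18.2% in the wild-type libraries, highest in sedentary 6, and 18.1 to 19.2% in the CD47-KO libraries. Sedentary 1 had the highest sum of slow fibre markers and sedentary 6 the smallest scaling factor (0.795), so several results of the members are given without them too. The marker results are not. The tendon markers also summed to 782 CPM in sedentary 1, against 36.4 to 166 CPM in the other sedentary libraries. Cd47 itself was 11.5 to 12.1 CPM (counts scaled to library size) in the libraries labelled CD47-KO and 10.8 to 16.4 CPM in the others, so the label is used here as a label. The muscle markers looked at were abundant in every library, with sums of 14 myofibre genes from 136650 to 337053 CPM.

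Levels between genes were compared per length, as CPM per kilobase of the merged annotated exons of each gene. In sedentary muscle the highest was Mdh2, the mitochondrial malate dehydrogenase, at 577 ± 69.3 CPM per kilobase (SD, n = 6). Cs, the citrate synthase that opens the cycle, followed at 290 ± 67.1 (SD, n = 6), and Ogdh, the first subunit of the 2-oxoglutarate dehydrogenase complex, at 216 ± 66.7 CPM per kilobase (SD, n = 6). The 10 highest members were all cycle genes. Among the branched-chain genes Bckdha, a subunit of the dehydrogenase that commits the carbon, was the highest at 69.5 ± 3.69 CPM per kilobase (SD, n = 6). Its phosphatase Ppm1k was the lowest of all members at 0.837 ± 0.226 and Dbt, the core of the same complex, the next lowest at 2.42 ± 0.681 CPM per kilobase (SD, n = 6). The ketone genes lay between, with Acat1 at 52.4 ± 10.2, Oxct1 at 47.2 ± 22.1 and Bdh1 at 14.8 ± 14.1 CPM per kilobase (SD, n = 6). The SDs of Mdh2 and Cs leave their order clear, while those of Acat1, Oxct1 and Bckdk (43.2 ± 6.23, SD, n = 6) overlap.

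Promoter windows in RefSeq (GRCm38.p6), from 250 bases before to 50 bases after a start site, were found for 33 of the 36 members. Both strands were searched for letters known from factors that drive mitochondrial genes. The core of the NRF1 motif, TGCGCATGC, was in windows of 2 of 33 members (6.06%) and of 1.72% of all 27025 genes. The motif of the oestrogen-related receptors, TCAAGGTCA, was in 0 of 33 members and 0.466% of all genes, and its shorter core AAGGTCA, which it contains, in 1 of 33 (3.03%) against 5.38%. CCGGAAG, the core bound by GABP, was in 4 of 33 members (12.1%) and 9.93% of all genes. The pair of NRF1 matches is shown because they are the longest matches found, with the motif in capitals. For Ogdh the stretch is chr11:6292517-6292575 on the plus strand and for Pccb, a subunit of propionyl-CoA carboxylase, chr9:101034887-101034945 on the minus strand.
Ogdh: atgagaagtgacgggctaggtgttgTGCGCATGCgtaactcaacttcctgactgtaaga
Pccb: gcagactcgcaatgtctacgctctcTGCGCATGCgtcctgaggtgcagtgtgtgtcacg
These are matches of letters near a start site and were not measured as binding sites.

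**Figure D1:**
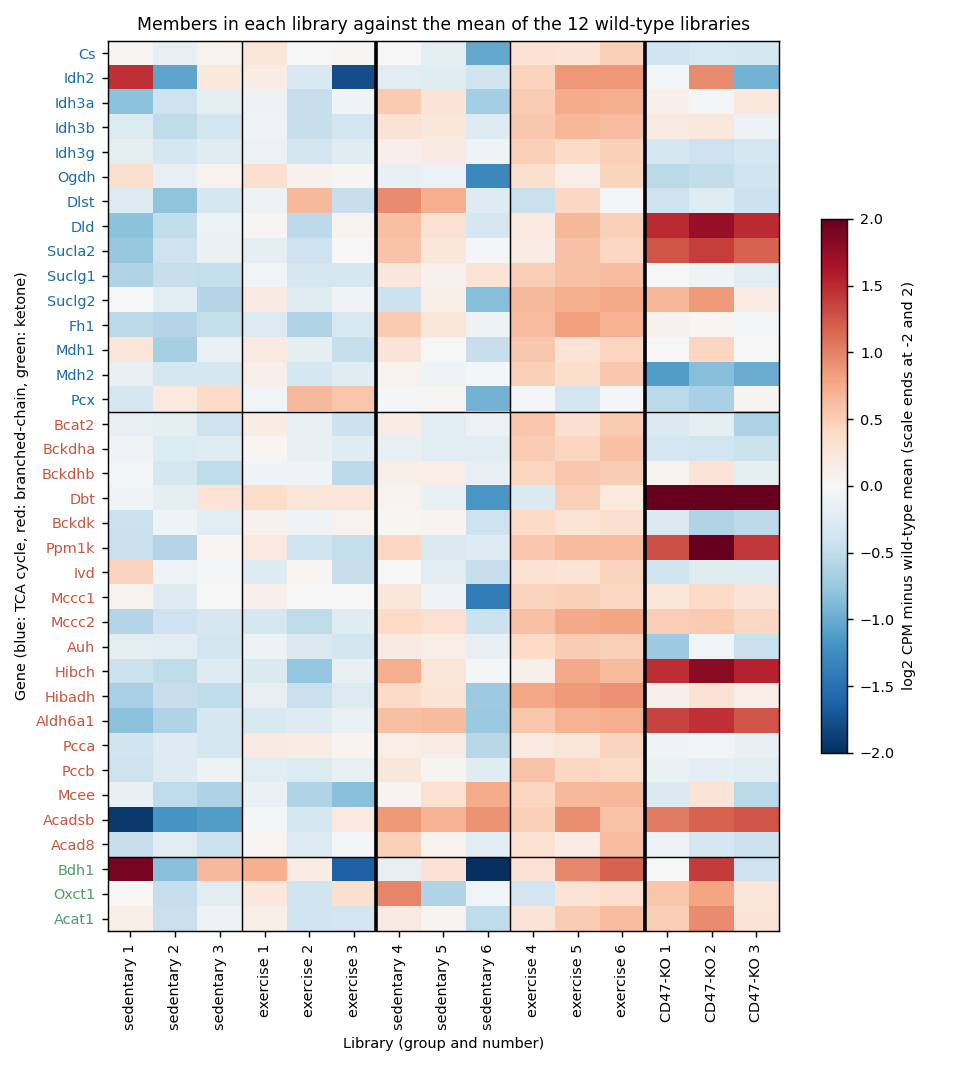
Level of each of the 36 members (rows) in each of the 15 libraries (columns), as log2 CPM minus the mean of the 12 wild-type libraries, with red higher and blue lower and the colour scale ending at -2 and 2. Exercise libraries 4 to 6 are red in most rows, sedentary 6 is the lowest of the 3 sedentary libraries of its set in 28 members, and the CD47-KO libraries are deep red for Dld, Sucla2, Dbt, Ppm1k, Hibch and Aldh6a1 and blue for Mdh2.

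Exercise was set beside sedentary muscle to ask how the 36 genes differ after exercise. No member passed the threshold of an adjusted p under 0.05 by edgeR's quasi-likelihood test, where 0% of all genes tested passed. At an unadjusted p under 0.05 the test had 6 members, of 665 genes, and neither DESeq2, with 9 genes called, nor limma-voom, with 0, called any member. The fold changes leaned one way: 35 of 36 members were above 0, with a median log2 fold change of 0.31, beside 46.1% of all genes above 0 and a median of -0.03. The levels of the groups overlapped in every member, and 0.100% of all genes had exercise entirely above sedentary. Without sedentary 1 and 6 the median was 0.25 and 35 of 36 members were above 0, with 0 called. With single libraries left out, 30 (without exercise 6) to 36 members were above 0 and the median was 0.24 to 0.38.

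Among the cycle genes 14 of 15 were above 0, with a median log2 fold change of 0.33. Suclg2, which makes the subunit for GTP-linked succinyl-CoA synthase, had the smallest p of all members. Its level was 24.2 CPM at the lowest, 35.2 at the median and 47.7 at the highest of 6 sedentary libraries, and 37.3, 58.9 and 74.0 CPM in the same order in exercise. The upper exercise values thus lay above all sedentary libraries and the lower ones among them, with a log2 fold change of 0.67 (SE 0.22, adjusted p = 1.00 by edgeR). Cs was 471 CPM at the lowest, 909 at the median and 1002 at the highest in sedentary muscle, and 948, 1144 and 1337 CPM in exercise. Only the sedentary minimum, in library 6, lay far from the rest, and the log2 fold change was 0.40 (SE 0.18, adjusted p = 1.00 by edgeR). Dlst, the core subunit of the 2-oxoglutarate dehydrogenase complex, was the one member below 0, at -0.07 (SE 0.29).

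In branched-chain breakdown 18 of 18 members were above 0, with a median log2 fold change of 0.35. Bckdha was 125 CPM at the lowest, 130 at the median and 144 at the highest in sedentary libraries, a narrow range, and 127, 179 and 228 CPM in exercise. Exercise 2 and 3 lay within the sedentary range, exercise 1 just above its maximum and exercise 4 to 6 far above it, with a log2 fold change of 0.42 (SE 0.16, adjusted p = 1.00 by edgeR). Pcca, the partner subunit of Pccb in clearing propionyl-CoA, was 27.2, 32.2 and 44.2 CPM (lowest, median, highest) in sedentary and 41.4, 45.3 and 54.0 CPM in exercise. Its ranges met only at sedentary 4 and 5, and the log2 fold change was 0.40 (SE 0.14, adjusted p = 1.00 by edgeR). The kinase Bckdk, which inactivates the dehydrogenase complex, was 125, 153 and 176 CPM in sedentary and 159, 191 and 221 CPM in exercise. Its opponent Ppm1k was 3.43, 4.27 and 6.89 CPM in sedentary and 3.70, 6.70 and 7.999 CPM in exercise. Kinase and phosphatase thus stood in the same direction, at log2 fold changes of 0.35 (SE 0.14) and 0.40 (SE 0.24), both with an adjusted p of 1.00 by edgeR.

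The 3 ketone genes had a median log2 fold change of 0.08. Bdh1, which oxidises 3-hydroxybutyrate, was 3.62 CPM at the lowest, 42.4 at the median and 150.5 at the highest in sedentary muscle, a 41.6-fold range, and 12.95, 57.6 and 91.3 CPM in exercise. Exercise lay wholly inside that range, and the log2 fold change of 0.08 (SE 0.62) changed sign when single libraries were left out. Oxct1, the enzyme that loads acetoacetate with coenzyme A, was 107, 147 and 319 CPM in sedentary and 123, 191 and 205 CPM in exercise, at 0.05 (SE 0.25), which also changed sign with single libraries left out. Acat1, which splits acetoacetyl-CoA and also serves isoleucine breakdown, was 133, 187 and 215 CPM in sedentary and 144, 216 and 290 CPM in exercise, at 0.26 (SE 0.21). None of the 3 had exercise and sedentary libraries apart.

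Within the libraries numbered 1 to 3, exercise and sedentary muscle differed little in the median of these genes, though single members differed more. No member was called, where 0% of all genes were called higher and 0% lower, and 2 members and 662 genes had an unadjusted p under 0.05. The median log2 fold change was 0.12, with 31 of 36 members above 0, and without exercise 1 the count was 20 and the median 0.051. The median was 0.18 without exercise 2. In 6 members the 3 exercise libraries lay above the 3 sedentary ones, against 4.93% of all genes. Acadsb, the dehydrogenase of short branched acyl-CoA in isoleucine breakdown, stood out by its smallest p. It was 7.59, 12.8 and 13.3 CPM in sedentary 1 to 3 and 28.3, 22.7 and 33.3 CPM in exercise 1 to 3, so the lowest exercise library exceeded the highest sedentary one. The log2 fold change was 1.32 (SE 0.22, adjusted p = 0.211 by edgeR), and DESeq2 called it at an adjusted p of 8.58e-05, as did edgeR after a correction for GC content (1.34). Of all genes, DESeq2 called 11 higher and 10 lower in this set, and the corrected edgeR test 1 higher and 0 lower.

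The next smallest p in that set belonged to Pcca, at 30.2, 33.1 and 31.2 CPM in sedentary 1 to 3 and 44.9, 43.9 and 41.4 CPM in exercise 1 to 3. The groups did not overlap, and the log2 fold change was 0.46 (SE 0.17, adjusted p = 1.00 by edgeR). Suclg1, the subunit common to both succinyl-CoA synthases, was 143, 159 and 156 CPM against 210.2, 173 and 170.5 CPM, also without overlap, at 0.27 (SE 0.15). Ivd, which oxidises isovaleryl-CoA from leucine, went the other way. It was 129, 90.4 and 92.5 CPM in sedentary 1 to 3 and 79.7, 97.9 and 68.8 CPM in exercise 1 to 3, with overlap, at -0.34 (SE 0.19).

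Within the libraries numbered 4 to 6 the same genes were further apart, though again no member was called, where 0.00556% of all genes were called higher and 0.00556% lower. The median log2 fold change was 0.46, with 33 of 36 members above 0. An unadjusted p under 0.05 was reached by 20 members, and by 9.39% of all genes. All 3 exercise libraries lay above all 3 sedentary ones in 23 of 36 members (10 cycle, 12 branched-chain and 1 ketone gene), against 7.71% of all genes. Sedentary 6 was the lowest of its set in 28 members. Without it the median was 0.32, 30 members were above 0 and 16 had an unadjusted p under 0.05, while exercise 4 to 6 lay above sedentary 4 and 5 in 24 members, against 15.3% of all genes.

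Bckdha was the clearest of them, at 136, 129 and 131 CPM in sedentary 4 to 6 and 214, 204 and 228 CPM in exercise 4 to 6. The gap between the groups was wider than the range within either, and the log2 fold change was 0.71 (SE 0.14, adjusted p = 0.196 by edgeR). DESeq2 called it (adjusted p = 3.22e-06), and of all genes it called 60 higher and 71 lower in this set. Without sedentary 6 the log2 fold change of Bckdha was 0.69. Suclg2 was 32.6, 47.7 and 24.2 CPM in sedentary 4 to 6 and 68.8, 71.7 and 74.0 CPM in exercise 4 to 6, with no overlap and the sedentary libraries the more spread. Its log2 fold change was 1.04 (SE 0.25, adjusted p = 0.377 by edgeR, adjusted p = 0.0260 by DESeq2), and 0.82 without sedentary 6.

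Hibadh, a dehydrogenase of valine breakdown, was 141, 130.5 and 65.0 CPM in sedentary 4 to 6 and 185, 194 and 204 CPM in exercise 4 to 6. Sedentary 6 was far below the other 2 sedentary libraries of its set, and the log2 fold change of 0.79 (SE 0.23, adjusted p = 0.408 by edgeR) was 0.51 without it. Cs behaved alike, at 958, 838 and 471 CPM against 1170, 1154 and 1337 CPM, with 0.69 (SE 0.22, adjusted p = 0.460 by edgeR), and 0.43 without sedentary 6. The 3 members below 0 in this set were Dlst at -0.53 (SE 0.33), Oxct1 at -0.15 (SE 0.34) and Acadsb at -0.15 (SE 0.21).

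**Figure D2:**
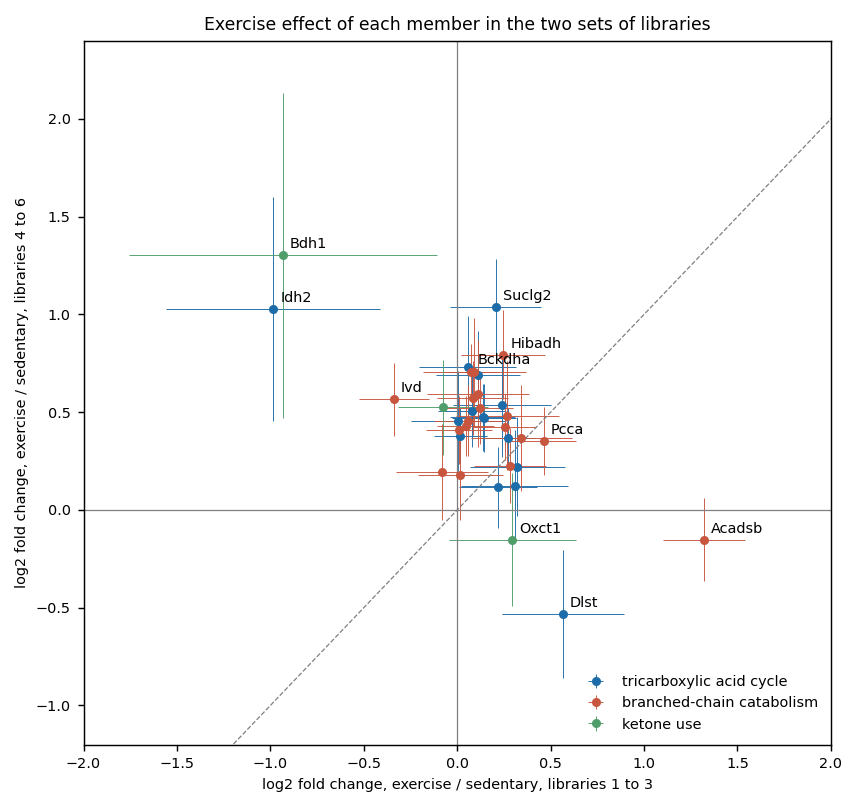
Log2 fold change of exercise against sedentary for each member in libraries 1 to 3 (horizontal axis) and in libraries 4 to 6 (vertical axis), with bars of 1 SE, coloured by role, and the dashed line where both are equal. Most members lie above the dashed line at small positive values in libraries 1 to 3, while Acadsb and Dlst lie at the lower right and Bdh1, Idh2 and Ivd at the upper left.

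The difference between the sets was tested itself, as the fold change in libraries 4 to 6 minus that in 1 to 3. No member was called, where 0% of all genes were called, and 6 members had an unadjusted p under 0.05, of 1035 genes. The effect was larger in 4 to 6 for 28 of 36 members, by a median of 0.37 on the log2 scale. Acadsb had the smallest p and was among the 8 members with the smaller effect in 4 to 6, at -1.47 (SE 0.30, adjusted p = 0.502 by edgeR, adjusted p = 0.00864 by DESeq2). Bckdha differed by 0.63 (SE 0.20, adjusted p = 0.860 by edgeR, adjusted p = 0.0431 by DESeq2). Of all genes, DESeq2 called 9 higher and 17 lower for this difference. Ivd, lower in exercise 1 to 3 on average, was 94.5, 81.8 and 69.4 CPM in sedentary 4 to 6 and 118, 115 and 130.2 CPM in exercise 4 to 6, without overlap. Its effects differed by 0.91 (SE 0.26, adjusted p = 0.860 by edgeR).

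Idh2, the NADP-linked isocitrate dehydrogenase of mitochondria, was 665, 117 and 281 CPM in sedentary 1 to 3 and 269, 196.5 and 70.6 CPM in exercise 1 to 3. In the other set it was 207, 204 and 184 CPM in sedentary and 329, 441 and 444 CPM in exercise. The groups overlapped widely in 1 to 3 and not at all in 4 to 6. The effects differed by 2.01 (SE 0.81, adjusted p = 0.860 by edgeR). Without sedentary 1 the difference was 1.18 (SE 0.73), and the log2 fold change in 1 to 3 was -0.16 instead of -0.99.

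Both sets had 28 members (77.8%) above 0, where 24.98% of all genes were above 0 in both. Of the others, Dlst, Acadsb and Oxct1 were above 0 in 1 to 3 and below it in 4 to 6, and Idh2, Ivd, Mcee, Bdh1 and Acat1 the reverse. Mcee is the epimerase of methylmalonyl-CoA. Across the 36 members the fold changes of the sets ran in opposite order, with Pearson r = -0.68 and Spearman rho = -0.49, and r = -0.43 over the 33 members without Idh2, Bdh1 and Acadsb. The genes of 1 library share its depth and scaling, so these values describe the members and are not tests.

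The sets differed in level as well. Over exercise and sedentary libraries together, 31 of 36 members were higher in 4 to 6, by a median of 0.46 on the log2 scale, where the median of all genes was -0.07. All 3 exercise libraries of 4 to 6 exceeded all 3 of 1 to 3 in 30 members, against 19.8% of all genes. Acadsb showed the difference most clearly in sedentary muscle, at 11.2 ± 3.17 CPM in libraries 1 to 3 and 51.1 ± 3.80 CPM in 4 to 6 (SD, n = 3 each), while exercise was 28.1 ± 5.30 and 45.96 ± 7.93 CPM (SD, n = 3 each). The exercise level of Acadsb in 1 to 3 was thus below that of sedentary muscle in 4 to 6.

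**Figure D3:**
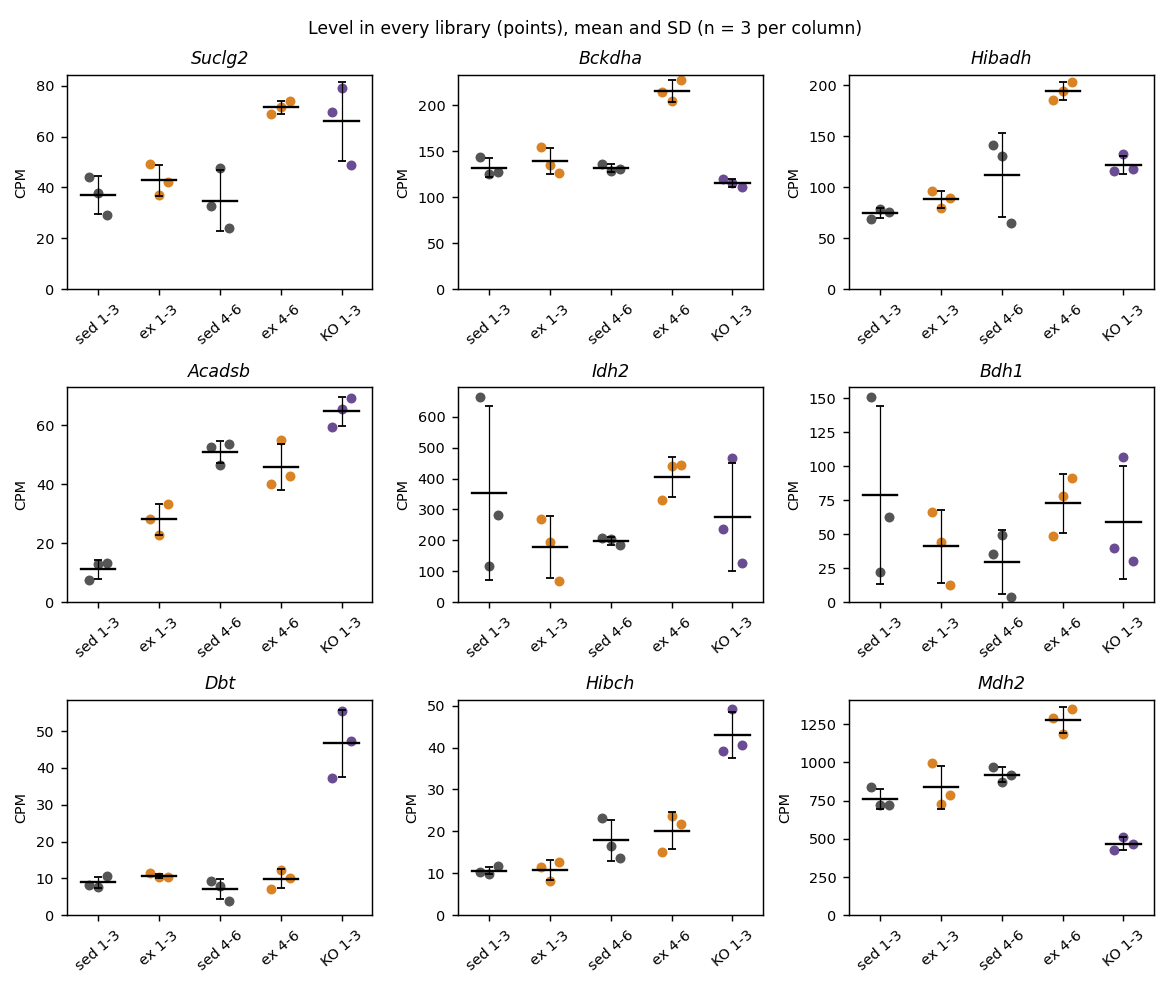
CPM of 9 members in every library (points), with the mean (line) and SD of the 3 libraries in each column, for sedentary (grey) and exercise (orange) libraries of both sets and the CD47-KO libraries (purple). Bckdha and Suclg2 are high in exercise 4 to 6 only among the wild-type columns, Acadsb is low in sedentary 1 to 3, Idh2 and Bdh1 are widely spread, and Dbt and Hibch are high and Mdh2 low in CD47-KO.

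Bdh1 and Idh2 had the largest SEs of all members in the tests within sets (0.83 and 0.57 in each). Idh2 ranged from 117 to 665 CPM in sedentary muscle and from 70.6 to 444 CPM in exercise. The highest Idh2 and Bdh1 were both in sedentary 1, where 12 markers of slow, oxidative fibres summed to 25282 CPM, against 1542 to 9367 CPM in the other sedentary libraries. The lowest exercise values were both in exercise 3, where the slow fibre markers summed to 106 CPM, against 1658 to 4694 CPM in the other exercise libraries. Over the 12 wild-type libraries Idh2 correlated with that sum at Pearson r = 0.69 (permutation p = 0.0171, adjusted p = 0.616 over the 36 members) and Spearman rho = 0.29 (permutation p = 0.354, adjusted p = 0.591). Bdh1 had r = 0.41 (permutation p = 0.183, adjusted p = 0.690) and rho = 0.38 (permutation p = 0.219, adjusted p = 0.493).

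Both relations rest on sedentary 1 and exercise 3: without them r was -0.14 for Idh2 and -0.18 for Bdh1. Within libraries 1 to 3, n = 6, r was 0.91 for Idh2 (exact permutation p = 0.0125) and 0.91 for Bdh1 (exact permutation p = 0.0111). Within libraries 4 to 6, n = 6, it was -0.37 for Idh2 (exact permutation p = 0.508) and -0.76 for Bdh1 (exact permutation p = 0.136). The p-values within sets were not adjusted for the 36 members. In 1 to 3 Ivd was at r = 0.87 (exact permutation p = 0.0444). In 4 to 6 Acad8 (r = -0.91, exact permutation p = 0.0111), Mdh1 (-0.89, p = 0.0319) and Pcx (-0.91, p = 0.0333) ran the other way. No relation of the 36 had an adjusted p under 0.05, and the median r was -0.16. The part of fibre makeup in the exercise results was not tested. In whole muscle, fewer fibres of a kind and less RNA per fibre cannot be told apart.

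Other genes of these pathways were looked at from lists that do not hold the 36. Of 15 further cycle genes 12 were above 0 in exercise against sedentary, with a median log2 fold change of 0.32, and of 21 further branched-chain genes 20, with 0.24. Of 16 genes of amino acid transfer and carbon supply 13 were above 0 (median 0.20), of 12 further ketone genes 8 (median 0.11), of 13 genes of lipoate attachment 9 (median 0.12) and of 15 regulators of oxidative genes 12 (median 0.13). None of these genes was called in exercise against sedentary or in either set. None of the marker genes looked at was called either. All 12 slow fibre markers were below 0 (median -1.62), with sums of 1542 to 25282 CPM in sedentary and 106 to 4694 CPM in exercise. In numbers 4 to 6 10 of the 12 were below 0 (median -0.50). All 7 tendon (median -0.74), 8 Schwann cell and nerve (-0.63) and 4 genes of a brown adipocyte list (-0.28) were below 0. That list holds cytochrome oxidase genes and is not specific to these cells. In numbers 1 to 3, 2 of its genes were above 0 and 2 below, and in 4 to 6, 1 was above and 3 below. All 6 erythrocyte genes were above 0 (0.08), but the sets were opposed. All 6 were below 0 in numbers 1 to 3 (median -0.48) and above 0 in 4 to 6 (median 0.60). Of 9 adipocyte markers 5 were above 0 (median 0.11). In numbers 1 to 3, 5 were above 0 (median 0.37), and in 4 to 6, 8 were below 0 (median -1.39). They summed to 1489 to 1635 CPM in exercise 4 to 6 and 1732 to 1908 CPM in sedentary 4 to 6. Their sums overlapped in numbers 1 to 3. Above 0 were 9 of 14 myofibre (median 0.07), 3 of 8 endothelial (-0.08), 5 of 8 macrophage (0.10) and 5 of 7 fibroblast genes (0.18). Of 8 liver serum genes 7 were below 0 (median -4.33). These summed to 0.433 to 33.4 CPM in sedentary and 0.0782 to 10.7 CPM in exercise, with Alb at 0 in every exercise library. Their part in the results was not tested.

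CD47-KO was set beside sedentary to ask how the same genes differ where Cd47 is targeted. By edgeR's quasi-likelihood test 7 members rose and 1 fell, where 11.9% of all genes were called higher and 8.75% lower. The counts are thus 19.4% and 2.78% of the members, and the median log2 fold change of the members was 0.13, beside -0.11 for all genes. The risen genes were Dld, Sucla2 and Suclg2 of the cycle and Dbt, Ppm1k, Hibch and Aldh6a1 of branched-chain breakdown, and Mdh2 fell. No ketone gene was called. Without sedentary 1 and 6 the counts were again 7 and 1, of 2237 genes called higher and 1525 lower. The median was 0.012 without CD47-KO 2, 0.27 without CD47-KO 3, 0.24 and 0.23 without sedentary 4 and 5, and 0.083 without sedentary 3.

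Dbt, the transacylase core of the branched-chain dehydrogenase, changed most. It was 3.94 CPM at the lowest, 8.12 at the median and 10.7 at the highest of the sedentary libraries, and 37.3, 55.5 and 47.3 CPM in CD47-KO 1 to 3. Every CD47-KO library exceeded the highest sedentary one several-fold, with a log2 fold change of 2.54 (SE 0.24, adjusted p = 1.09e-05 by edgeR). Ppm1k, at 3.43 to 6.89 CPM in sedentary, was 12.6, 21.9 and 13.8 CPM in CD47-KO, again apart, at 1.78 (SE 0.28, adjusted p = 0.000458 by edgeR).

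Hibch, the hydrolase that frees 3-hydroxyisobutyrate in valine breakdown, was 9.91, 12.7 and 23.2 CPM (lowest, median, highest) in sedentary and 39.2, 49.2 and 40.7 CPM in CD47-KO. The groups lay apart, with 1.59 (SE 0.31, adjusted p = 0.00180 by edgeR). Aldh6a1, a later dehydrogenase of the valine path, was 44.6 to 121 CPM in sedentary and 200.01, 215 and 188 CPM in CD47-KO, at 1.44 (SE 0.34, adjusted p = 0.00721 by edgeR). The subunits Bckdha and Bckdhb of the first step of the same dehydrogenase as Dbt did not pass, at -0.19 (SE 0.20) and 0.17 (SE 0.23). Bckdk was 138, 111 and 117 CPM in CD47-KO, all below its sedentary median of 153 CPM, at -0.30 (SE 0.18, adjusted p = 0.250 by edgeR).

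In the cycle Dld, the lipoamide dehydrogenase that the 2-oxoglutarate, pyruvate and branched-chain complexes share, was 50.1, 75.2 and 133 CPM (lowest, median, highest) in sedentary and 248, 294 and 247 CPM in CD47-KO. It rose by a log2 fold change of 1.64 (SE 0.28, adjusted p = 0.000772 by edgeR), with the groups apart. Sucla2, the ATP-linked counterpart of Suclg2, was 94.5 to 236 CPM in sedentary and 383, 417 and 362 CPM in CD47-KO, at 1.31 (SE 0.26, adjusted p = 0.00220 by edgeR). Suclg2 was 69.6, 79.2 and 48.9 CPM in CD47-KO, all above its sedentary maximum of 47.7 CPM, the third by little. Its log2 fold change was 0.87 (SE 0.26, adjusted p = 0.0250 by edgeR), and the call was lost without CD47-KO 1 (0.88) and without CD47-KO 2 (0.67).

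Mdh2 was 723 CPM at the lowest, 855 at the median and 970.1 at the highest in sedentary muscle and 426, 513 and 466 CPM in CD47-KO. The groups did not overlap, and the log2 fold change was -0.84 (SE 0.23, adjusted p = 0.0147 by edgeR), a call lost without CD47-KO 1 or CD47-KO 3, when 0 members were lower. Its cytosolic counterpart Mdh1 was at 0.25 (SE 0.25) and Cs, at 725, 767 and 752 CPM in CD47-KO, at -0.18 (SE 0.22, adjusted p = 0.617 by edgeR). Oxct1 was 236, 278 and 191 CPM in CD47-KO, at 0.50 (SE 0.30, adjusted p = 0.270 by edgeR). This lay inside the sedentary range only through sedentary 4 (319 CPM), with the next sedentary library at 162 CPM. Acat1 was 267, 365 and 226 CPM, above all sedentary libraries, at 0.68 (SE 0.25, adjusted p = 0.0645 by edgeR), and DESeq2 called it (adjusted p = 0.0249). Of all genes, DESeq2 called 2575 higher here, where edgeR called 2146. Bdh1 was 40.1, 106.5 and 30.2 CPM, at 0.12 (SE 0.75).

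The fold changes of the CD47-KO libraries followed the GC content of the genes. Over the 36 members Spearman rho between transcript GC content and the log2 fold change against sedentary was -0.73, and against exercise -0.66, while that of exercise against sedentary was -0.25. The 7 risen members had 39.9 to 45.9% GC, where the median of the members was 47.7%. After each library was corrected for its trend with GC content, 2 members were higher, where 4.31% of all genes were, and 2 lower, where 4.64% were. Dbt and Hibch kept their calls, at 1.60 (SE 0.24, adjusted p = 0.000807 by edgeR) and 1.23 (SE 0.31, adjusted p = 0.0190 by edgeR). Dld was 0.52 (adjusted p = 0.117), Sucla2 0.58 (adjusted p = 0.120), Suclg2 0.31 (adjusted p = 0.537), Ppm1k 0.50 (adjusted p = 0.219), Aldh6a1 0.61 (adjusted p = 0.220) and Mdh2 -0.68 (adjusted p = 0.108 by edgeR). Hibadh, the member with the least GC (39.5%), moved from 0.39 to -0.93 (adjusted p = 0.0386 by edgeR), and Acad8, the isobutyryl-CoA dehydrogenase of valine breakdown, from -0.20 to -0.83 (adjusted p = 0.0251 by edgeR). The CD47-KO libraries have no wild-type libraries of their own set, so a batch of their own and the genotype cannot be told apart.

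**Figure D4:**
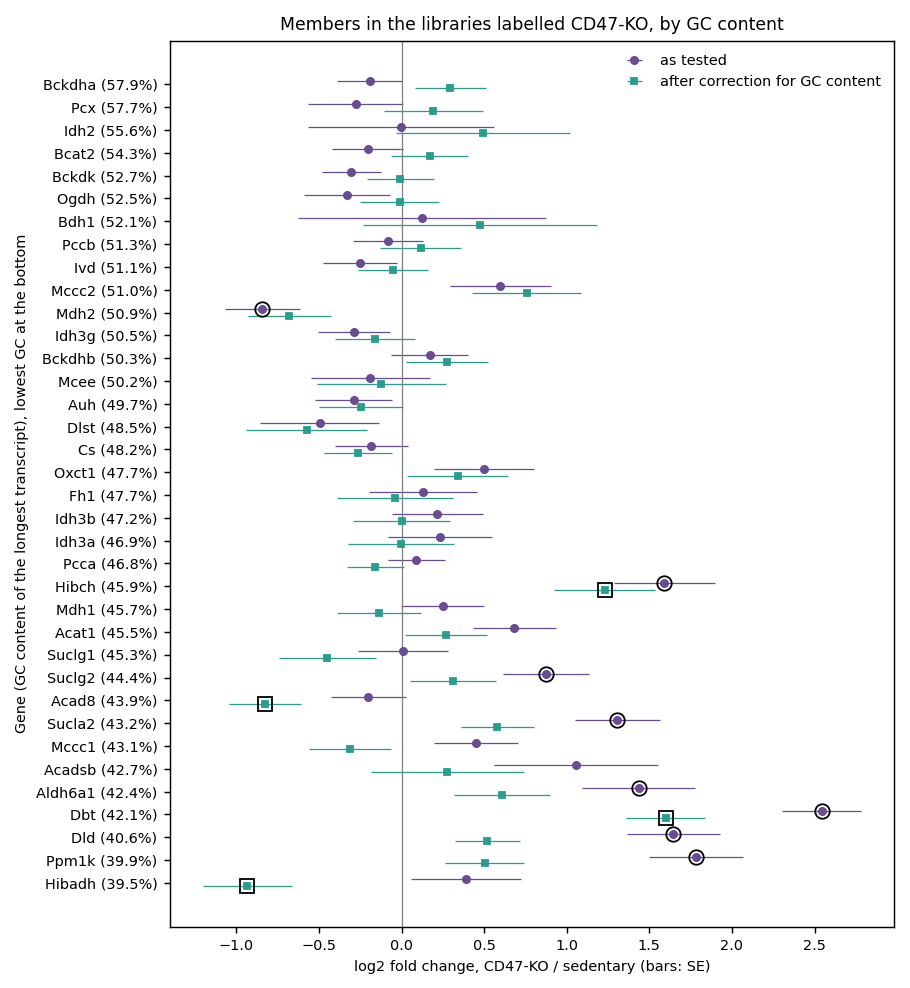
Log2 fold change of CD47-KO against sedentary with its SE for each member as tested (circles) and after correction for GC content (squares), with genes ordered by GC content from the lowest at the bottom and an outline around values with an adjusted p under 0.05. The outlined circles to the right are all in the lower part, from Ppm1k (39.9% GC) to Hibch (45.9%), and the outlined squares are Dbt and Hibch to the right and Hibadh and Acad8 to the left.

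The result also depended on which sedentary libraries were used. Against sedentary 1 to 3 only, 14 members were called higher, where 18.2% of the genes tested were, and 1 lower, where 11.5% were (median 0.39), and all 8 genes called against all sedentary libraries passed in the same direction. Against sedentary 4 to 6 only, 5 were called higher, where 11.5% of the genes tested were, and 1 lower, where 9.27% were (median -0.03), and 6 of the 8 passed. Suclg2 (0.90, adjusted p = 0.0774) and Aldh6a1 (1.05, adjusted p = 0.0805 by edgeR) did not pass there. Dbt was 2.46 against the first set and 2.70 against the second.

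Beside exercise, CD47-KO had 6 members higher and 3 lower by edgeR, where 12.2% of all genes were called higher and 8.34% lower. The median log2 fold change of the members was -0.20 and 13 of 36 were above 0. The median was -0.03 without exercise 5 or 6, -0.08 without exercise 4, -0.34 without CD47-KO 2, and -0.13 and -0.11 without CD47-KO 1 and 3. Dld (1.38, SE 0.28), Sucla2 (1.15, SE 0.26), Dbt (2.18, SE 0.24), Ppm1k (1.38, SE 0.29), Hibch (1.47, SE 0.31) and Aldh6a1 (1.08, SE 0.34) were the higher ones. Adjusted p-values were 1.91e-05 for Dbt and 0.00246, 0.00494, 0.00264, 0.00291 and 0.0349 for Dld, Sucla2, Ppm1k, Hibch and Aldh6a1. Dbt was 7.20 CPM at the lowest, 10.4 at the median and 12.3 at the highest in exercise, and Dld 61.0, 96.4 and 139.6 CPM, both well below the CD47-KO libraries. Both CD47-KO comparisons use the same 3 CD47-KO libraries, so they are not separate evidence for a gene.

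Mdh2 had the lowest fold change against exercise, whose libraries ran from 729 CPM over a median of 1092 to 1350 CPM, with all CD47-KO libraries below them. The log2 fold change was -1.17 (SE 0.23, adjusted p = 0.00185 by edgeR). Bckdha and Bckdk, the catalytic subunit and its kinase, also fell, with log2 fold changes of -0.62 (SE 0.20, adjusted p = 0.0377 by edgeR) and -0.65 (SE 0.18, adjusted p = 0.0170 by edgeR). Only 1 member was lower without exercise 4, CD47-KO 2 or CD47-KO 3, of 988, 738 and 628 genes called lower. Against exercise 1 to 3 alone, 13 members were higher, where 21.2% of the genes tested were, and 2 lower, where 14.6% were (median 0.39), and Bckdha was at -0.18 and Bckdk at -0.40, neither called. Against exercise 4 to 6 alone, 7 were higher, where 22.1% of the genes tested were, and 18 lower, where 18.9% were (median -0.44), with Bckdha at -0.87 and Bckdk at -0.77. After GC correction 2 members were higher, where 4.51% of all genes were, and 3 lower, where 4.57% were: Dbt 1.19 and Hibch 1.12, and Mdh2 -0.98, Hibadh -1.61 and Acad8 -1.11. The other calls were lost, with Dld at 0.17 (adjusted p = 0.694), Sucla2 0.38 (0.338), Ppm1k 0.035 (0.958), Aldh6a1 0.17 (0.800), Bckdha -0.15 (0.754) and Bckdk -0.33 (adjusted p = 0.372 by edgeR).

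Pairs of members with opposed or parallel roles were set side by side per length in each library. Bckdk exceeded Ppm1k 39.7- to 73.8-fold in sedentary, 40.7- to 75.7-fold in exercise and 8.09- to 17.4-fold in CD47-KO. Exercise and sedentary overlap in this kinase to phosphatase ratio, and CD47-KO lies below both. Bckdha exceeded Dbt 20.7- to 57.8-fold in sedentary, 21.2- to 51.8-fold in exercise and 3.61- to 5.58-fold in CD47-KO, again with CD47-KO apart. Mdh2 exceeded Mdh1 2.84- to 5.06-fold, 3.34- to 4.31-fold and 1.52- to 1.88-fold in the same order. Sucla2 exceeded Suclg2 3.62- to 12.3-fold, 4.34- to 6.43-fold and 8.90- to 12.5-fold, with overlap of CD47-KO and sedentary. CD47-KO and sedentary also overlapped in the other pairs looked at. The ratio of Bckdha to Bckdhb was 3.98 to 5.36 in CD47-KO and 4.92 to 7.55 in sedentary. In the same order Pccb to Pcca was 2.23 to 2.38 and 2.30 to 3.05. Mccc1 to Mccc2 was 1.00 to 1.10 and 0.612 to 1.88, and Oxct1 to Bdh1 2.70 to 6.56 and 1.11 to 44.6. In the first 3 pairs the gene with more GC is the one relatively lower in CD47-KO, and Sucla2 and Suclg2 differ little in GC (43.2 and 44.4%). These ratios were not corrected for GC content.

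Among the further pathway genes, regulators of oxidative genes had 5 of 15 higher and 1 lower in CD47-KO against sedentary. The shares of all genes for this and the lists that follow are the 11.9% higher and 8.75% lower given above. The other lists hold 0 to 2 higher and 1 to 3 lower genes each. Gabpa, a subunit of the ETS factor GABP, rose from 8.95 ± 2.85 (SD, n = 6) to 45.7 ± 4.49 CPM (SD, n = 3), at 2.35 (adjusted p = 4.14e-05 by edgeR), and kept its call after GC correction (1.33, adjusted p = 0.000565). The receptor gene Esrrg was at 1.71 (adjusted p = 0.00293 by edgeR) and the coactivator gene Ppargc1a at 1.15 (adjusted p = 0.00563 by edgeR), but after GC correction at 0.83 (adjusted p = 0.171) and 0.14 (adjusted p = 0.831). Of 21 further branched-chain genes 2 were higher and 1 lower. Slc43a1, a carrier of large neutral amino acids, rose from 25.1 ± 7.64 (SD, n = 6) to 92.8 ± 47.5 CPM (SD, n = 3), at 1.88 (adjusted p = 0.000263 by edgeR), and Ehhadh, a peroxisomal oxidation enzyme, by 1.86 (adjusted p = 0.000508 by edgeR). Both passed after GC correction, at 2.18 (adjusted p = 0.000219) and 1.65 (adjusted p = 0.00200). Slc7a5, another carrier of these amino acids, fell, at -1.38 (adjusted p = 0.0409 by edgeR), and did not pass after it.

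Of 12 further ketone genes 2 were higher (Hmgcs1, a synthase of the sterol pathway, and Acss1, which activates acetate) and 1 lower (Acat2, the cytosolic thiolase). Hmgcs1 was at 1.11 (adjusted p = 0.000231 by edgeR), and after GC correction at 0.35 (adjusted p = 0.155). Of 15 further cycle genes 1 was higher (Idh1) and 1 lower (Sdhaf1), of 16 genes of amino acid transfer 0 and 2 (Adssl1 and Adsl), and of 13 lipoate genes 1 and 3. After GC correction Idh1 (0.13, adjusted p = 0.827), Sdhaf1 (-0.73, adjusted p = 0.0970), Adssl1 (-0.41, adjusted p = 0.330) and Adsl (-0.61, adjusted p = 0.0551 by edgeR) did not pass. The counts higher and lower were then 2 and 1 for the regulators, 2 and 0 for branched-chain, 1 and 1 for ketone, and 0 and 1 each for cycle, transfer and lipoate genes. Against exercise, where 12.2% and 8.34% of all genes were called, the counts higher and lower were 3 and 2 for the regulators, 2 and 2 for branched-chain, 1 and 2 for ketone, 0 and 4 for cycle, 1 and 3 for transfer and 1 and 2 for lipoate genes. Of 14 myofibre genes 5 were called lower against sedentary, and they summed to 136650 to 186760 CPM in CD47-KO, 169822 to 302006 CPM in sedentary and 201431 to 337053 CPM in exercise. All 12 slow fibre markers were below 0 against sedentary (median -0.99) and 11 above 0 against exercise (median 0.61), none called. Their sum was 1166 to 8430 CPM in CD47-KO. The 9 adipocyte markers summed to 2437 to 4182 CPM in CD47-KO, 1670 to 2365 CPM in sedentary and 1489 to 1970 CPM in exercise. Of them 4 were above 0 against sedentary (median -0.06), and Lpl, the only one called, was on average 293 CPM in sedentary and 1316 CPM in CD47-KO. Against sedentary, 2 of 8 endothelial (Tie1, Cldn5) and 2 of 8 Schwann cell and nerve genes (Mbp, Prx) were called lower. So were 1 of 8 liver serum genes (Alb) and 1 of 4 on the brown adipocyte list (Cox8b, a cytochrome oxidase gene not specific to these cells). Called higher were 2 of 7 fibroblast (Pdgfra, Dcn) and 1 of 8 macrophage genes (Mrc1), and no tendon or erythrocyte gene was called. Their part in the members' results was not tested.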

How the data were processed

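Skeletal muscle RNA of 15 libraries was measured as gene counts. The values deposited by the authors are raw counts per gene symbol, in 1 table with 0 columns left without a sample. Trimmomatic 0.30, HISAT2 2.0.1, HTSeq 0.6.1 and the build GRCm38 were used, per the submitters' processing notes. The strand setting of the counting is not given in the sources used here, so reads of overlapping or antisense genes cannot be told apart. Values of 4, 8 and 12 made up 32.1 to 50.2% of all values from 1 to 15, so a count may not be 1 read, and the reason was not tested. No 2 libraries of 1 group were copies: the most alike, sedentary 4 and 5, had a chi-square of 72.0 per degree of freedom.

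Counts were filtered with filterByExpr, scaled by TMM and fitted by robust quasi-likelihood (edgeR 4.0.16, R 4.3.3, prior count of 2), with Benjamini-Hochberg adjustment over 17975 genes at 0.05. The fit had 3 groups, or 5 where the sets of title numbers were tested. CPM are library-scaled. SEs come from the fold change and its F statistic. GC content, lengths and coordinates come from GENCODE on GRCm38, in which 22716 symbols matched once. The GC correction was a lowess curve (span 0.3) per library, used as an offset. The test was also run on simulated counts. These held no difference between the sets of title numbers, so they do not show how the test behaves with one.

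The members were chosen by name, but this choice, and that of the lists and alternatives, was made with earlier results of these data known. Values in every library or, in groups of 6, the lowest, median and highest are given for the 4 members with the smallest p in each comparison and for Cs, Suclg2, Bckdk, Ppm1k, Bdh1, Oxct1 and Acat1, and up to 3 called genes are named per further list. Other members are named for what they show. Deviations of exercise and sedentary libraries with the same title number correlated at 0.194 to 0.364. This passed a rule of every r above 0.1, set for taking the numbers as pairs. Other numbers of the same set had a median of 0.265, and only 2 exercise libraries correlated best with their own number. The correlations thus do not set equal numbers apart from others of their set. Pairs by title number were used only in the replicate block, and the main fit had none. In the submitters' descriptions exercise 4 to 6 are numbered differently, unlike sedentary 4 to 6. Numbers of CD47-KO and the other groups did not pair (-0.139 to 0.150). Alternatives were RLE factors, DESeq2 1.42.0, limma-voom (limma 3.58.1), other filters, no robust dispersion, scaling on nuclear genes, GC correction, only the groups compared, replicate and set blocks, 1 set only, and libraries left out.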

Additional observations from a re-analysis of the deposited data

Results flagged for a closer look

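The levels of each member were looked at in the 6 sedentary and the 6 exercise libraries for 1 library far from the others, by the gap to its neighbour as a share of the range. Of 72 such groups 3 had one, where chance alone flags about 1 in 20. Cs was 471 CPM in sedentary 6, the lowest, with the next library at 838 CPM. Idh2 was 665 CPM in sedentary 1, the highest, with the next at 281 CPM, and Oxct1 was 319 CPM in sedentary 4, with the next at 162 CPM.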

How the results depend on the processing

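Exercise against sedentary kept 0 called members under every alternative run, and medians of 0.24 to 0.38 when single libraries were left out. The replicate block, which pairs exercise and sedentary libraries by title number, changed no call there (median 0.30, 35 members above 0, 13 with an unadjusted p under 0.05 instead of 6). Among the genes followed one by one, Bdh1 and Oxct1 changed sign with single libraries left out. In exercise against sedentary the log2 fold change ran from -0.19 to 0.70 for Bdh1 and from -0.048 to 0.34 for Oxct1, and in CD47-KO against sedentary from -0.67 to 0.70 for Bdh1. Other members did so too, since 30 to 36 were above 0 in exercise. In CD47-KO Bdh1 was at -0.32 against sedentary 1 to 3 only. DESeq2 called 1 member higher in numbers 1 to 3, of 11 genes called higher, and 2 in 4 to 6, of 60. For the difference between sets it called 1 member higher and 1 lower, of 9 and 17 genes. In CD47-KO against exercise it called 5 members lower, of 1936 genes, where the main fit called 3, of 1500. GC correction called 1 member higher in numbers 1 to 3, of 1 gene called higher. It called 2 higher and 2 lower in CD47-KO against sedentary, of 775 and 834 genes, and 2 higher against exercise, of 811. The replicate block gave 13 higher with a median of 0.43 in CD47-KO against sedentary. It called 2691 of all genes higher there, where the main fit called 7 members and 2146 genes. Against exercise it had 22 members above 0 with a median of 0.17. The CD47-KO libraries share numbers with libraries 1 to 3 only, and no known source. With numbers 1 to 3 only, 14 were higher against sedentary, where 18.2% of the genes tested were. Against exercise 13 were higher, where 21.2% of the genes tested were, with 24 members above 0 and a median of 0.39. With numbers 4 to 6 only, 18 were lower against exercise, where 18.9% of the genes tested were. With single libraries left out, members above 0 in numbers 1 to 3 ran from 20 to 32. Members lower in CD47-KO ran from 0 to 1 against sedentary and from 1 to 4 against exercise. Of all genes, 598 to 1894 and 628 to 1323 were then called lower, in the same order. Some of these alternatives used fewer libraries, and the cause of the changes was not tested. In 436 other cases the summary values moved by less than the limits set. For medians the limit was the SD of the members' median between libraries, 0.28, or 0.18 where the sets were fitted. For counts it was a fixed ratio, and counts of 0 that stayed 0 are among these cases. The limits are wide beside the medians, so the 436 cases do not show that values were stable. At these depths every member had at least 168 counts in every library.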
